A study of Mus musculus with 6 samples.

Results

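The 10 genes described here, all of bone morphogenetic protein (BMP), TGF-β and activin signaling, were examined in inguinal white adipose tissue (iWAT) of cold-acclimated mice. The set comprises the ligand genes Bmp4, Bmp7, Bmp8b, Gdf10, Inhbb, Tgfb1 and Tgfb2, the type I receptor genes Bmpr1a and Acvr1c, and the type II receptor gene Bmpr2. The genes were chosen by symbol, and all 10 were present among the 16538 genes of the deposited RNA-Seq table.

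The study asked how loss of NRG4, a secreted ligand of the EGF family made by brown and beige fat, alters iWAT during cold acclimation. The control group is wild type in the labels and fl/fl, which carries the floxed Nrg4 allele without Cre, in the study's text. The AKO group lacks Nrg4 in adipocytes through Adiponectin-Cre, a driver active in adipocytes, so that other cells of the depot retain the gene. All mice were chow fed and kept at 8°C, for 10 days in the labels and slightly longer in the study's text. Each group had 3 samples, and each sample was a pool of RNA from 2 mice of the same genotype. The age, sex and strain of these mice are not given in the sources used here. All 6 samples came from the cold, so the values describe genotype within cold acclimation.

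BMPs, TGF-βs and activins are secreted dimers that bring together type I and type II serine/threonine kinase receptors, which then phosphorylate Smad proteins. BMP receptors act mainly through Smad1, Smad5 and Smad9, whereas TGF-β and activin receptors act mainly through Smad2 and Smad3. In adipose tissue, BMP4 and BMP7 are known to commit progenitors to the adipocyte lineage, BMP7 and BMP8B are associated with thermogenic fat, and TGF-β and activin signaling is known to restrain adipocyte differentiation and to promote matrix production.

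Sequencing depth was 17570335 to 18373707 reads per sample, as recovered from the deposited normalized counts. Nrg4, the targeted gene, was measured at 3128, 3102 and 3092 normalized counts in control and at 2577, 2627 and 2691 in AKO. The mean was thus 15.3% lower in AKO without overlap (limma, log2 fold change -0.24 ± 0.05 SE, adjusted p = 0.298). A count over the whole gene cannot separate reads of the deleted part from reads of other exons. In its own qPCR, the study reports hardly any Nrg4 mRNA in iWAT of AKO mice. The adipocyte markers, including Adipoq and Plin1, were abundant in all samples, with summed normalized counts of 429156 to 519434. The adipocyte sum was lower in AKO without overlap, but each of its 8 markers had overlapping groups, and so had the mean log2 value of the list. The sum of 9 beige adipocyte markers, including Ucp1, was 28145 to 40343 in control and 11756 to 15424 in AKO. The sum of 9 adipocyte progenitor markers was 28095, 32520 and 36121 in control and 42607, 33171 and 40068 in AKO. The sum of 8 macrophage markers was 9366, 10526 and 13111 in control and 15598, 11649 and 15765 in AKO. Skeletal muscle markers varied most, from 167 in control sample 1 to 118180 in AKO sample 3, and mammary epithelial markers from 24.7 in control sample 2, where Krt8, Krt14, Krt5 and Epcam were at 0, to 1433 in AKO sample 2. Markers of B and T lymphocytes summed to 761 in control sample 1 and 1100 in AKO sample 2, against 89.5 to 125 in the other samples. Endothelial sums of 17342 to 20429, mural sums of 12508 to 14222 and Schwann cell sums of 8078 to 10395 overlapped between groups. In whole tissue, fewer cells of a type and less RNA per cell cannot be told apart.

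The 10 genes differed widely in level. Because longer genes collect more reads, levels between genes were compared as normalized counts per kilobase of exon. Tgfb1 was highest, with a median over the 6 samples of 273 per kilobase, followed by Gdf10 at 213, Bmpr1a at 212, Acvr1c at 199 and Inhbb at 128. The ranges of neighbors in this order overlapped from Tgfb1 down to Inhbb. Bmpr2 came next at 76.7 per kilobase, and its range overlapped neither that of Inhbb nor that of Bmp4. Bmp4 at 34.8, Bmp7 at 30.6 and Tgfb2 at 25.2 had overlapping ranges, and Bmp8b was far below them at 0.388. The ligand genes therefore covered the whole range of levels, while the 3 receptor genes were all above Bmp4, Bmp7, Tgfb2 and Bmp8b.

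No gene of the set passed the threshold between genotypes. In limma on log2(normalized count + 1), with p-values adjusted over the 13855 genes tested, 0 of the 9 genes tested had an adjusted p under 0.05, against 0.0144% of all genes, or 2 genes. Before adjustment, 1 of the 9 had p under 0.05, which is 11.1% of them and close to the 9.1% of all genes tested. This gene was Tgfb2. The groups overlapped for all 9, where 14.5% of all genes tested had groups that did not. The log2 fold change was above 0 for 7 of the 9 and below 0 for 2, with a median of 0.19, where 51.9% of all genes were above 0 and the median over all genes was 0.0070. The recovered reads gave the same count of 0 in edgeR, with Tgfb2 again at p under 0.05 against 9.27% of all genes. DESeq2 also called 0 of the 9 with an adjusted p, against 0.998% of all genes with an adjusted p, and had p under 0.05 for Tgfb2 and Inhbb, against 6.25% of all genes. Bmp8b was below the minimum mean of 10 normalized counts and was not part of the limma test. The labels do not state that different samples came from different mice, and the p-values measure the spread between these pools.

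**Figure D1:**
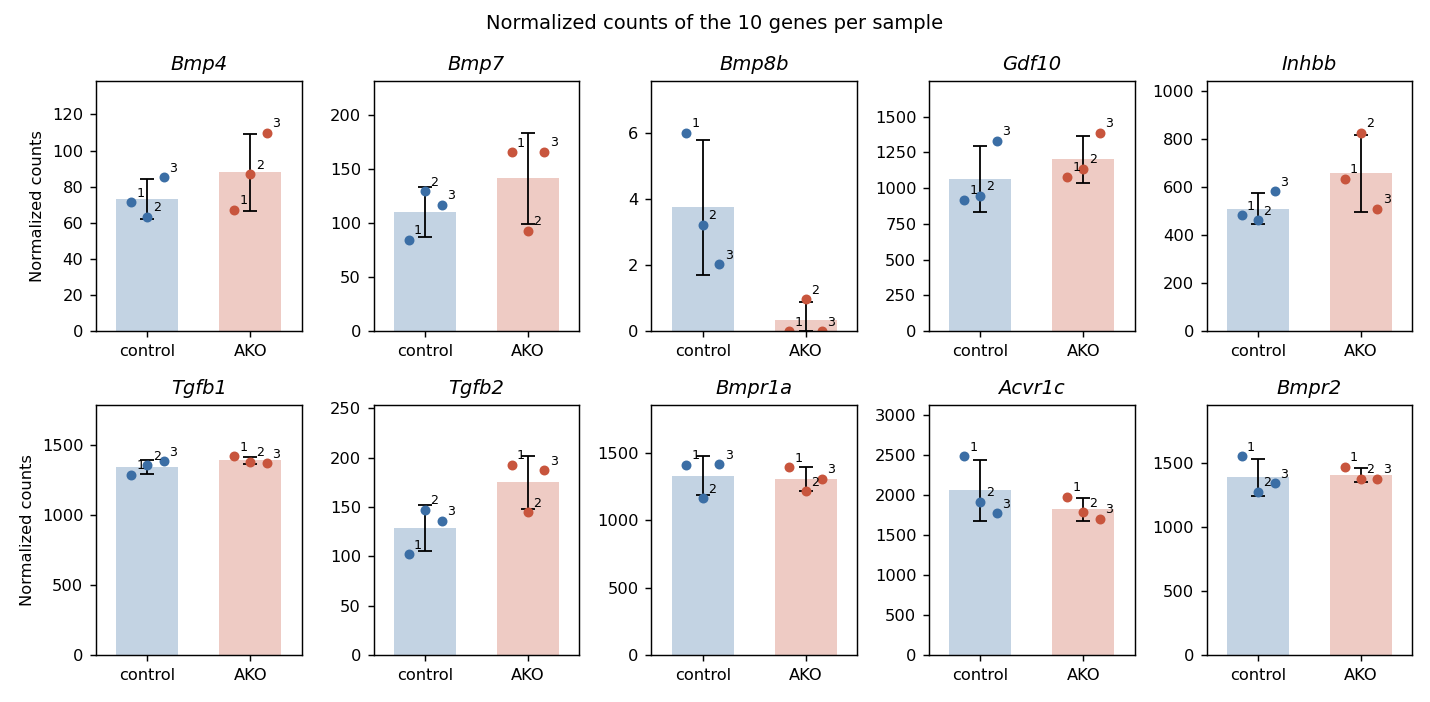
Normalized counts (vertical axis, linear from 0) of the 10 genes in control and AKO iWAT. Points are samples numbered by replicate, bars are means of 3 samples and error bars are SD, cut off at 0 for Bmp8b in AKO. Only Bmp8b, at 0 to 0.976 normalized counts in AKO and 2.03 to 6.02 in control, has groups that do not overlap.

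The 2 genes on which the description turns most are Tgfb2, with the lowest p, and Bmp8b, with the fewest reads and the only groups without overlap, and both were looked at for the DNA just before their start sites. Of the 10 genes, 9 had an entry in the RefSeq promoter table (GRCm38.p6), and Bmp7 had none. The 250 bases before the start are given 5′ to 3′ on the gene's strand, with matches to the searched motifs in capitals. The region of Tgfb2 is chr1:186705990-186706239 on the minus strand, and that of Bmp8b is chr4:123104911-123105160 on the plus strand.
Tgfb2: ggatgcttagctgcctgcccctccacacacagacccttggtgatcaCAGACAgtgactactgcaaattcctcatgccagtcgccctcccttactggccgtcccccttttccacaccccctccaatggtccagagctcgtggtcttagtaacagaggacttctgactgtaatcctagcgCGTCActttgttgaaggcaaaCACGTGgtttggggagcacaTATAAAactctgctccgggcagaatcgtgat
Bmp8b: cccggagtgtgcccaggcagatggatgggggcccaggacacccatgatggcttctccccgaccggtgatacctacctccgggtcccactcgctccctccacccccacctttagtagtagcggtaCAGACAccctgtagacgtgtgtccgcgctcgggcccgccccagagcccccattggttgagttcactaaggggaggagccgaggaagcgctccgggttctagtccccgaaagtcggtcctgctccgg

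The motifs searched, on both strands, were the cAMP response element TGACGTCA, its shorter form TGACG, which lies within it, the E box CACGTG, the TATA box TATAAA, the SMAD box CAGACA and the GC-rich motif GGCGCC of BMP-responsive genes. The Tgfb2 sequence held a CAGACA that begins 204 bases before the start, a TGACG on the opposite strand at 72, a CACGTG at 51 and a TATAAA at 31. The Bmp8b sequence held a single CAGACA at 126 bases before the start. Tgfb2 was the only one of the 9 genes with a TATAAA in this window, a motif found in 12.4% of the 32851 promoters of the table. CAGACA was found in 17.1% of them, TGACG in 17.8%, CACGTG in 6.02%, GGCGCC in 9.59% and TGACGTCA in 1.55%. Bmp4 held a CACGTG, Bmpr1a and Bmpr2 each held a GGCGCC, and Tgfb1, Acvr1c, Gdf10 and Inhbb held none of the motifs in this window. The Tgfb2 window had 53.6% G and C, near the median of 52.4% over all promoters, and that of Bmp8b had 65.2%. These matches are letters only, and no measurement of factor binding was part of the data.

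Among the TGF-β isoforms, Tgfb2 encodes one of the latent cytokines that are released from the matrix to bind TGFBR1 and TGFBR2. The gene lies on chromosome 1 (186622792 to 186705989, minus strand, GRCm38). Tgfb2 had 102, 147 and 136 normalized counts in control and 193, 144 and 187 in AKO. AKO samples 1 and 3 were above all control samples, AKO sample 2 lay below control sample 2, and control sample 1 was lowest, so the groups overlapped. The mean was 129 ± 23.4 in control and 175 ± 26.5 in AKO (SD, n = 3 each), or 35.9% higher, while counting error alone would give an SD of 11.5 and 13.0. The log2 fold change was 0.45 ± 0.17 SE with a 95% interval of 0.04 to 0.85 (limma, adjusted p = 0.522). It was 0.46 in edgeR (adjusted p = 0.496) and 0.44 in DESeq2 (adjusted p = 0.654), and the exact permutation test of the means gave p = 0.2. With a single sample left out the estimate ranged from 0.29 to 0.58, and the unadjusted limma p was no longer under 0.05 without control sample 1, AKO sample 1 or AKO sample 3. Control sample 1 also had the lowest sums of progenitor and macrophage markers, and AKO samples 1 and 3 had the highest. The part of these cells in the Tgfb2 values was not tested.

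Tgfb1, the isoform of most tissues and of leukocytes, lies on chromosome 7 (25687002 to 25705077, plus strand). Its values were 1291, 1356 and 1387 in control and 1420, 1382 and 1372 in AKO. All 6 samples lay within a narrow band, and the groups overlapped. The log2 fold change was 0.05 ± 0.06 SE, with an interval of -0.09 to 0.19 (limma, adjusted p = 0.854), and with a sample left out it was 0.021 to 0.073, the lowest without control sample 1. Tgfb1 had the narrowest interval of the 9 genes tested. Per kilobase, Tgfb1 made up 68.9 ± 3.72% of the 3 TGF-β isoforms in control and 66.2 ± 1.86% in AKO (SD, n = 3 each, exact permutation test, 2-sided p = 0.3). Tgfb2 made up 5.71 ± 0.794% in control and 7.24 ± 1.10% in AKO (exact permutation test, p = 0.2), and Tgfb3 made up 25.4% and 26.5%. The groups overlapped for each of the 3 shares. With 3 against 3 samples, the exact test cannot give a p under 0.1.

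The 3 BMP genes of the set were, with Tgfb2, the lowest per kilobase. Bmp4, known for committing mesenchymal cells to the white adipocyte lineage, lies on chromosome 14 (46383520 to 46390669, minus strand). Bmp4 had 71.2, 63.4 and 85.4 normalized counts in control and 67.2, 86.9 and 109.9 in AKO. The highest value was in AKO sample 3, and AKO sample 1 lay among the controls. In limma the log2 fold change was 0.24 ± 0.21 SE, with an interval of -0.24 to 0.72 (limma, adjusted p = 0.791). The estimate was 0.069 without AKO sample 3, 0.14 without control sample 2 and 0.42 without AKO sample 1. Of the Bmp4 exon bases, 3.96% are also covered by the antisense gene Gm15217, and whether counting used strand is not stated.

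Bmp7, known for promoting brown adipogenesis, lies on chromosome 2 (172868012 to 172940321, minus strand). Bmp7 had 84.3, 129 and 117 normalized counts in control and 165, 92.7 and 166 in AKO. As for Tgfb2, AKO samples 1 and 3 were high, and AKO sample 2 lay within the control range. Bmp7 had a log2 fold change of 0.33 ± 0.26 SE with the widest interval of the genes tested, -0.27 to 0.93 (limma, adjusted p = 0.763). Without AKO sample 2 the estimate was 0.61 with an unadjusted limma p under 0.05, and it was 0.15 without control sample 1, 0.19 without AKO sample 1 and 0.19 without AKO sample 3. Over all samples left out in turn, the adjusted p in limma was 0.505 to 0.923.

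Bmp8b, a BMP produced by brown fat and linked to its thermogenic response, lies on chromosome 4 (123105165 to 123132099, plus strand). It was covered by 6, 3 and 2 reads in the control samples and by 0, 1 and 0 reads in the AKO samples. The AKO samples therefore all lay below the control samples, as for 8.04% of the 16538 genes, and groups without overlap in either direction were found for 13.9% of them. Over the group, 11 reads in control stood against 1 in AKO, a ratio per sequenced read of 11.3 with an exact 95% interval of 1.64 to 485, which covers counting error only. The exact permutation test gave its smallest possible p of 0.1. Without a minimum level, the unadjusted p was under 0.05 in limma (adjusted p = 0.501) and edgeR (adjusted p = 0.496), and above 0.05 with no adjusted p in DESeq2. The setting without a minimum in edgeR was chosen after seeing the data. Of the Bmp8b exon bases, 12.2% are also covered by Gm17244 and Ppie on the opposite strand, and 10.3% of its 50-base windows also occur in transcripts of other genes, so even these few reads cannot be assigned with certainty. The neighboring copy Bmp8a (chromosome 4, 123312645 to 123343252, minus strand) had 34 reads in control and 34 in AKO, a ratio of 1.02 with an interval of 0.618 to 1.70. All 3 AKO samples also had lower sums of beige adipocyte markers than all control samples, and the part of these cells in the Bmp8b reads was not tested.

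The BMP ligand list held 10 genes of the table, with Bmp6 the highest of them per kilobase. Gdf10 was placed in the list of activins and other GDFs and is not part of these shares, although at 205 ± 44.1 per kilobase in control and 231 ± 31.4 in AKO it was above Bmp6, at 110 and 91.0. Bmp4 made up 12.2 ± 1.76% of the BMP ligand transcripts in control and 14.9 ± 3.43% in AKO (exact permutation test, p = 0.3). Bmp7 made up 10.2 ± 1.73% and 13.1 ± 2.47% (exact permutation test, p = 0.3), and Bmp8b made up 0.370 ± 0.221% and 0.0375 ± 0.0649% (exact permutation test, p = 0.1). The share of Bmp6 was 41.2 ± 2.55% in control and 34.3 ± 0.720% in AKO without overlap, and that of Gdf5 was 9.23 ± 0.831% and 6.49 ± 0.993%, also without overlap (exact permutation test, p = 0.1 for each, the smallest possible). The summed level of the 10 ligands was 267 ± 13.3 per kilobase in control and 265 ± 37.4 in AKO (exact permutation test, p = 0.8). Shares within a sample depend on each other, since they sum to 100%.

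**Figure D2:**
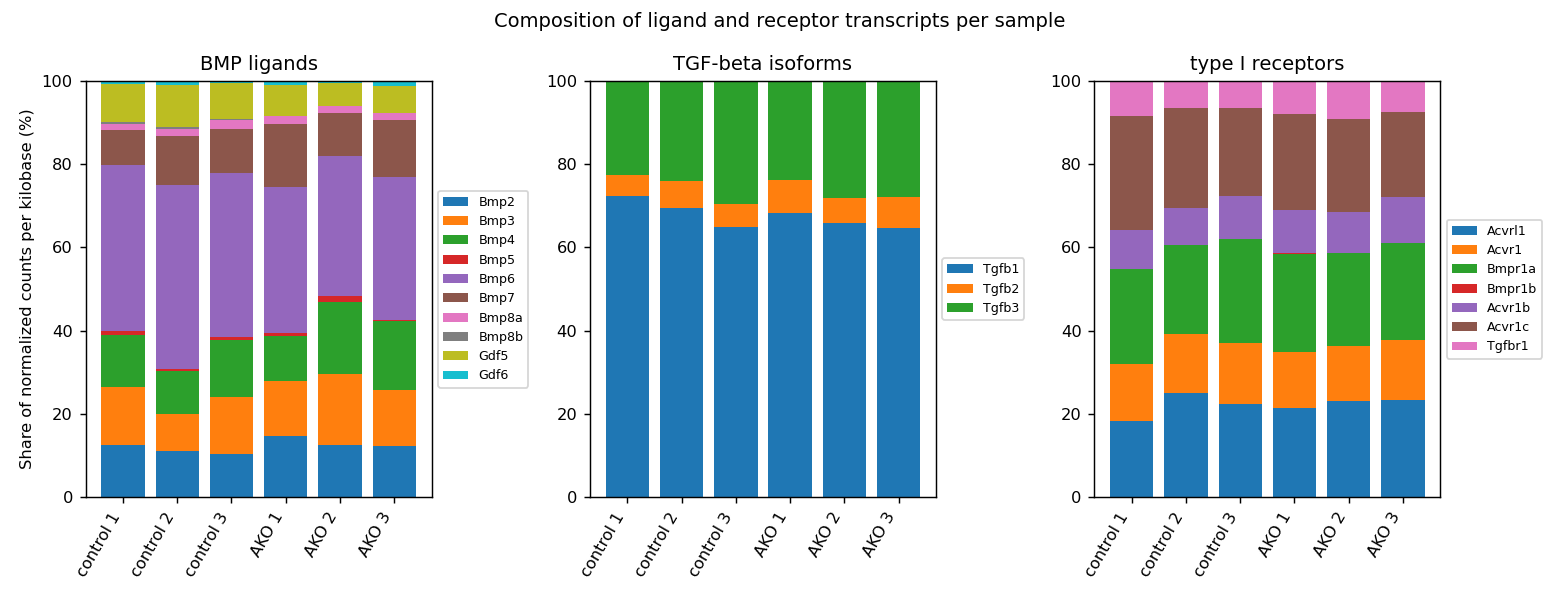
Share of normalized counts per kilobase (vertical axis, %) taken by each gene in each of the 6 samples (horizontal axis), for BMP ligands, TGF-β isoforms and type I receptors. Bmp6 takes 39.5% to 44.2% of the BMP ligands in control and 33.7% to 35.1% in AKO, while Tgfb1 takes the largest share of the TGF-β isoforms in all samples.

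Gdf10, also known as Bmp3b and secreted by stromal cells of fat, lies on chromosome 14 (33923587 to 33937983, plus strand). Gdf10 had 919, 948 and 1331 normalized counts in control and 1081, 1136 and 1388 in AKO. Both groups had a high sample, number 3 in each, and the other samples were lower. For Gdf10 the log2 fold change was 0.19 ± 0.15 SE, with an interval of -0.17 to 0.54 (limma, adjusted p = 0.781). With a sample left out it ranged from 0.077 without AKO sample 3 and 0.089 without control sample 1 to 0.36 without control sample 3, the last with an unadjusted limma p under 0.05, and the adjusted p over the samples left out in turn was 0.438 to 0.985.

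Inhbb encodes the βB subunit, which forms activin B, and lies on chromosome 1 (119415465 to 119422248, minus strand). Inhbb had 483, 460 and 581 normalized counts in control and 633, 825 and 509 in AKO. AKO samples 1 and 2 were above all control samples, and AKO sample 3 was below control sample 3. The mean was 508 ± 64.5 in control and 656 ± 159 in AKO (SD, n = 3 each), or 29.0% higher. The log2 fold change was 0.35 ± 0.17 SE, with an interval of -0.05 to 0.74 (limma, adjusted p = 0.597). DESeq2 gave 0.37, with an unadjusted p under 0.05 and an adjusted p = 0.586. Without AKO sample 3 the limma estimate was 0.51 with an unadjusted p under 0.05, and without AKO sample 2 it was 0.17. AKO sample 2, with the highest Inhbb, also had the highest sums of mammary epithelial and lymphocyte markers. Control sample 3, with the highest Inhbb of the controls, had a mammary sum of 951. AKO sample 1, with Inhbb at 633, had a mammary sum of 148 and a lymphocyte sum of 125. Control sample 1, with Inhbb at 483, had a lymphocyte sum of 761. The part of these cells was not tested. Inhbb provided 87.3 ± 4.23% of the inhibin and activin subunit transcripts in control and 88.0 ± 3.65% in AKO per kilobase (exact permutation test, p = 0.9), so that the partner subunits Inha and Inhba were minor in both groups. Inhba, at only 1.92 to 10.2 normalized counts, had a share of 0.770% in control and 0.296% in AKO without overlap (exact permutation test, p = 0.1, the smallest possible).

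**Figure D3:**
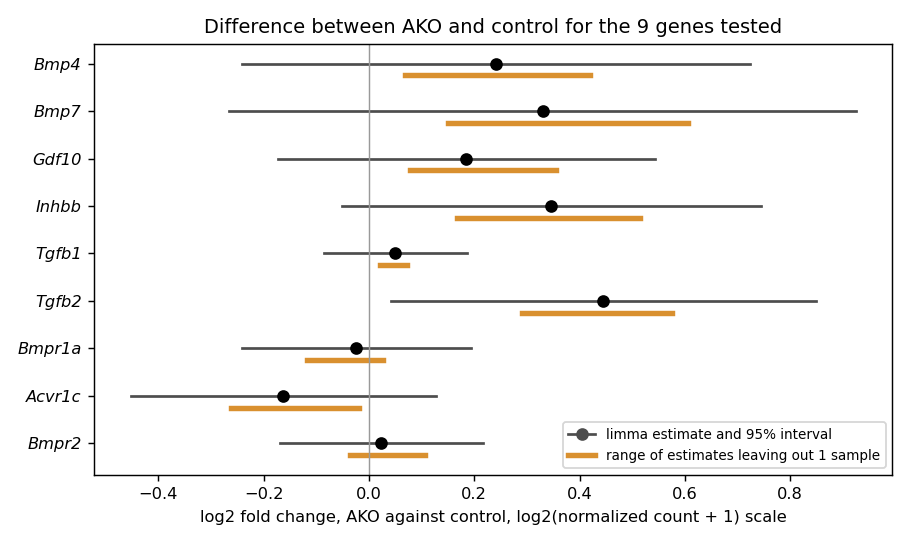
Log2 fold change of AKO against control (horizontal axis, log2(normalized count + 1) scale) for the 9 genes tested. Points and thin lines are limma estimates with 95% intervals, and thick lines span the estimates when each of the 6 samples was left out in turn. Only the interval of Tgfb2, 0.04 to 0.85, lies above 0.

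The 3 receptor genes had log2 fold changes of -0.16 to 0.024, and their groups overlapped. Bmpr1a encodes the type I receptor ALK3, through which BMP2 and BMP4 signal, and lies on chromosome 14 (34410734 to 34503341, minus strand). Bmpr1a had 1411, 1162 and 1413 normalized counts in control and 1391, 1215 and 1306 in AKO. Sample 2 was lowest in both groups, and the groups overlapped fully. Its log2 fold change of -0.024 ± 0.094 SE had an interval of -0.24 to 0.19 (limma, adjusted p = 0.969). The sign turned to 0.023 without control sample 1, 0.024 without control sample 3 and 0.026 without AKO sample 2.

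Acvr1c encodes the type I receptor ALK7, which is abundant in adipocytes and known to restrain lipolysis, and lies on chromosome 2 (58267453 to 58357895, minus strand). Acvr1c had 2485, 1915 and 1774 normalized counts in control and 1977, 1786 and 1704 in AKO. Control sample 1 stood above the rest, and the other 5 samples lay close together. For Acvr1c the log2 fold change was -0.16 ± 0.13 SE, with an interval of -0.45 to 0.13 (limma, adjusted p = 0.758), and it was -0.019 without control sample 1 and -0.26 without control sample 3. Per kilobase, Acvr1c took 24.2 ± 3.05% of the 7 type I receptor transcripts in control and 22.0 ± 1.24% in AKO (exact permutation test, p = 0.4). Bmpr1a took 22.9 ± 1.76% and 23.1 ± 0.713% (exact permutation test, p = 1).

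Bmpr2, the type II receptor of BMPs, lies on chromosome 1 (59763400 to 59879014, plus strand). Bmpr2 had 1554, 1276 and 1344 normalized counts in control and 1472, 1379 and 1381 in AKO. The AKO values all lay inside the control range. Its log2 fold change of 0.024 ± 0.084 SE had an interval of -0.17 to 0.22 (limma, adjusted p = 0.964). The sign turned to -0.036 without control sample 2 and to -0.0074 without AKO sample 1. Bmpr2 made up 12.7 ± 2.28% of the type II receptor transcripts per kilobase in control and 11.1 ± 0.585% in AKO (exact permutation test, p = 0.3). The summed level of the 5 type II receptors was 615 ± 44.9 per kilobase in control and 707 ± 12.6 in AKO without overlap (exact permutation test, p = 0.1, the smallest possible), and Tgfbr2 provided 74.0% and 76.2% of it.

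**Figure D4:**
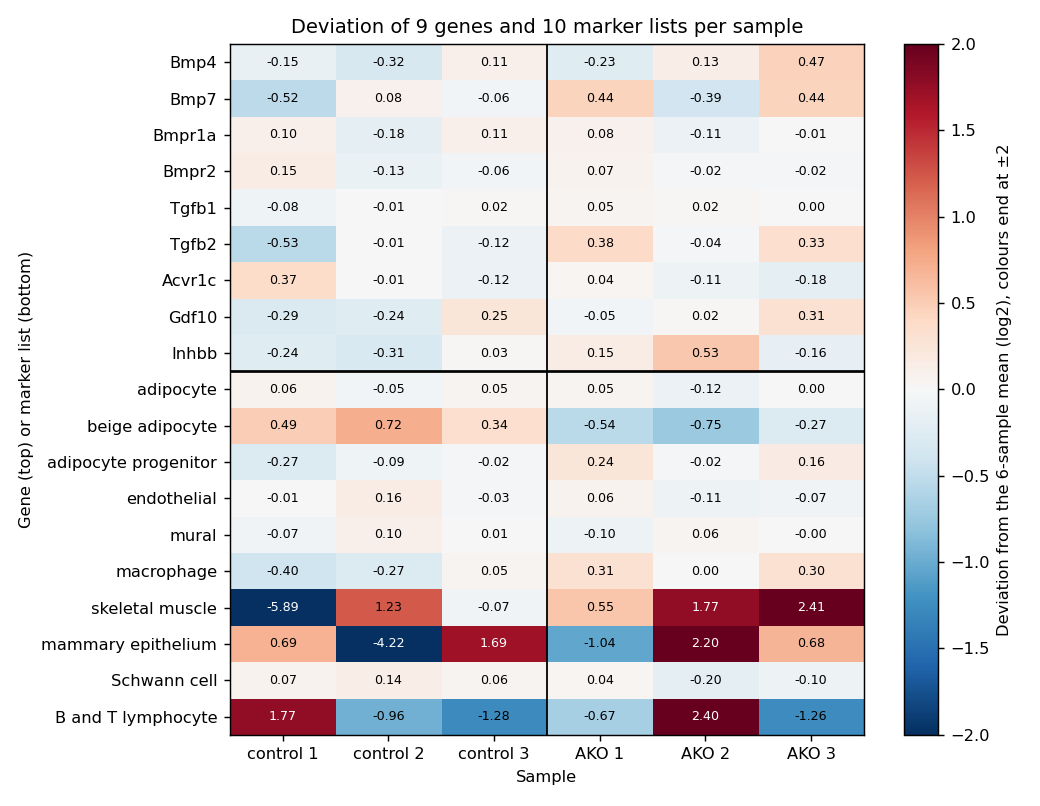
Deviation of each sample (horizontal axis) from the mean of the 6 samples on the log2 scale, for the 9 genes tested (upper rows) and for the mean of each of 10 marker lists (lower rows). Numbers give the deviation, and colors end at ±2. Tgfb2 and Bmp7 are lowest in control sample 1 and highest in AKO samples 1 and 3, where the progenitor and macrophage lists are also highest.

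The other genes of the pathway were then described from 10 lists by role. Of 100 further symbols listed, which include Ccn2 and Hjv as other names of Ctgf and Hfe2, 87 were in the table and 76 were tested, and 0 had an adjusted p under 0.05 in limma or edgeR, while DESeq2 called 2, against 0.998% of all genes with an adjusted p. Before adjustment, 9 of the 76 had p under 0.05, or 11.8% against the 9.1% of all genes. All 9 were higher in AKO, where 4.41% of all genes tested were higher with such a p. Of the 9, Mstn and Gdf9 reached the minimum mean of 10 only through the AKO group. Their means were 4.18 and 6.24 in control and 47.8 and 14.2 in AKO. In DESeq2, without this minimum, 6 of 87 genes had p under 0.05 before adjustment, 5 higher and 1 lower. This was 6.9%, against 6.25% of all genes. In limma, the log2 fold change was above 0 for 51 of the 76, against 51.9% of all genes, and the median was 0.10. The groups did not overlap for 15 of the 76, against 14.5% of all genes tested.

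Other ligand genes included 5 BMP genes, of which 2 were higher and 3 lower in AKO. Bmp6 had 392, 471 and 425 normalized counts in control and 374, 294 and 397 in AKO (limma, log2 fold change -0.28, adjusted p = 0.564). Gdf5 had 28.3 to 47.1 in AKO and 52.2 to 64.5 in control without overlap (limma, log2 fold change -0.53, adjusted p = 0.559), and was named after its values were seen. Bmp3, a BMP that opposes the others, had 184 to 280 normalized counts in control and 267 to 298 in AKO. The latent TGF-β binding proteins Ltbp3 and Ltbp4, which anchor TGF-β in the matrix, had overlapping groups, with log2 fold changes of -0.14 and -0.12.

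Mstn, the gene of the muscle growth inhibitor myostatin, had 0, 6.45 and 6.10 normalized counts in control and 14.4, 63.5 and 65.6 in AKO (limma, log2 fold change 3.43, adjusted p = 0.364). DESeq2 called Mstn (adjusted p = 0.000639), and it called one more gene of the lists, Tgfbi. The hemojuvelin coreceptor gene Hfe2, which is known from skeletal muscle, had 3.01, 102 and 52.9 in control and 81.6, 306 and 455 in AKO (limma, log2 fold change 3.01, adjusted p = 0.519). The summed level of the 12 skeletal muscle markers was lowest in control sample 1 and highest in AKO samples 2 and 3, as were both genes. Of these markers 10, including Acta1 and Ckm, had a log2 fold change above 0 and 2, Myh1 and Myh2, were below 0 and highest in control sample 2. The part of muscle in the Mstn and Hfe2 values was not tested. Gdf9, known from oocytes, had 3.01 to 8.60 in control and 11.7 to 16.4 in AKO (limma, log2 fold change 1.15, adjusted p = 0.522). Inha, the inhibin α subunit gene, had 15.2 to 34.2 normalized counts over the 6 samples and Lefty1, a nodal antagonist, had 20.3 to 27.8, both with overlapping groups.

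Of the receptors beside the set, Tgfbr2, the type II receptor of TGF-β, had 3163, 4008 and 4049 normalized counts in control and 4288, 4406 and 4542 in AKO (limma, log2 fold change 0.25, adjusted p = 0.527). The groups did not overlap, and control sample 1 was well below the rest. Acvrl1, Acvr1 and Acvr2a had overlapping groups and log2 fold changes of 0.02, -0.09 and 0.17. Bambi, a pseudoreceptor that dampens signaling, had 55.2, 54.8 and 54.9 in control and 70.1, 70.3 and 68.5 in AKO (limma, log2 fold change 0.34, adjusted p = 0.534). The SD of Bambi was 0.189 in control and 1.01 in AKO, smaller than the SD of 7.53 and 8.20 that counting error alone gives, and neither DESeq2 nor any fit with a sample left out had an unadjusted p under 0.05. The endothelial coreceptor gene Eng had 4088, 4891 and 4172 in control and 4030, 3588 and 3950 in AKO without overlap (limma, log2 fold change -0.18, adjusted p = 0.576). The coreceptor gene Tgfbr3 had overlapping groups with a log2 fold change of 0.13.

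All 8 Smad genes had log2 fold changes between -0.07 and 0.10, and 0 had p under 0.05 before adjustment in limma. Smad4, the shared partner of both branches, was at 0.06, and the BMP-responsive Smad5 was at 0.01. Of 15 antagonists and modulators tested, 12 were higher and 3 lower in AKO, with a median log2 fold change of 0.26. Among all genes, 51.9% were above 0. In limma 0 of the 15 were called, and 1 had an unadjusted p under 0.05, or 6.67% against 9.1% of all genes. Fstl1, a secreted BMP-binding glycoprotein, had 3620, 4592 and 4607 normalized counts in control and 5959, 4858 and 5692 in AKO (limma, log2 fold change 0.37, adjusted p = 0.451). Dcn, the matrix proteoglycan decorin, had 11575, 12758 and 15896 in control and 17733, 14453 and 17147 in AKO (limma, log2 fold change 0.30, adjusted p = 0.549). Dcn is also one of the 9 progenitor markers, and both genes were lowest in control sample 1 and highest in AKO samples 1 and 3.

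Target genes of the BMP branch were split, with 3 of 9 tested higher and 6 lower in AKO and a median log2 fold change of -0.036. Id1 and Id3, direct BMP targets that block basic helix-loop-helix factors, had log2 fold changes of -0.18 and -0.034 with overlapping groups. Msx1, a homeobox target of BMP signaling, had 19.1, 25.8 and 21.3 normalized counts in control and 29.8, 30.3 and 40.5 in AKO (limma, log2 fold change 0.58, adjusted p = 0.539). Of the 9, 3 had groups without overlap, 1 higher (Msx1) and 2 lower (Id2 and Hey1), where 14.5% of all genes tested had such groups. Id2 had 291 to 317 in control and 250 to 280 in AKO, and Hey1 had 235 to 259 and 199 to 229. Id2 and Hey1 were named after their values were seen.

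Target genes of the TGF-β branch had a log2 fold change above 0 for 13 of 17 tested, against 51.9% of all genes, with a median of 0.14. In limma 0 of the 17 were called, and 2 had an unadjusted p under 0.05, or 11.8% against 9.1% of all genes. Tgfbi, a TGF-β-induced matrix protein, had 1289, 1387 and 1642 normalized counts in control and 2170, 1663 and 2108 in AKO (limma, log2 fold change 0.46, adjusted p = 0.374), with an adjusted p of 0.0317 in DESeq2. The groups did not overlap, although AKO sample 2 exceeded the highest control sample only narrowly. The collagen gene Col1a1 and the feedback inhibitor gene Pmepa1 had overlapping groups, with log2 fold changes of 0.19 and -0.015. Tgfbi followed the same order of samples as the macrophage and progenitor markers in part, being highest in AKO samples 1 and 3 and lowest in control sample 1. The part of these cells was not tested.

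**Figure D5:**
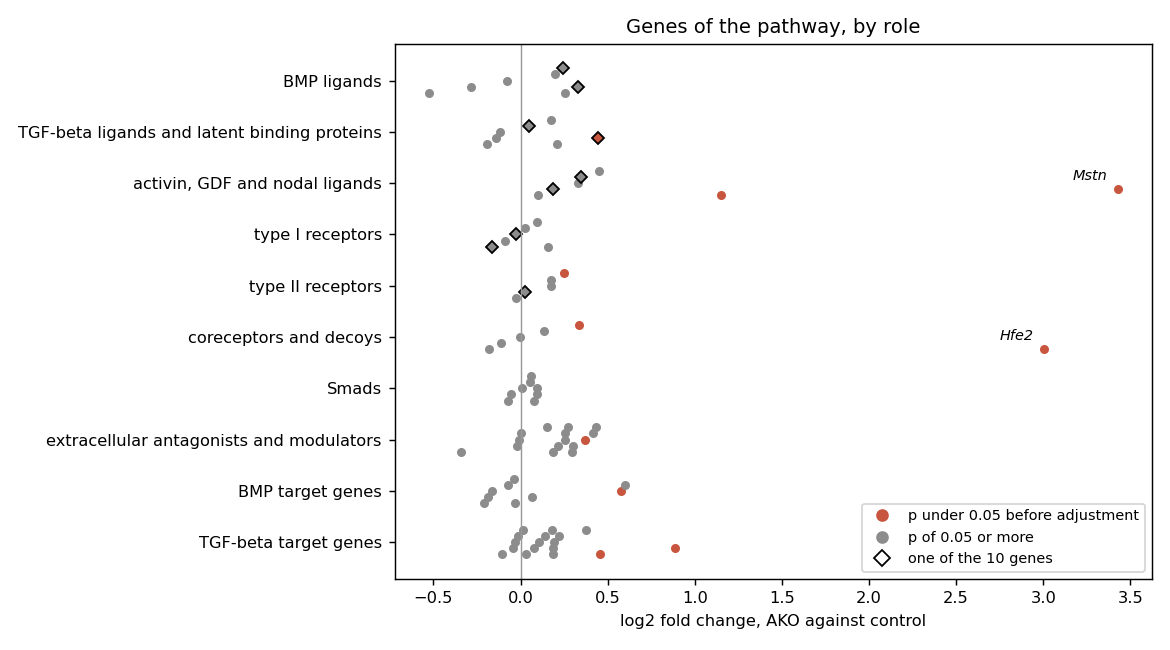
Log2 fold change of AKO against control (horizontal axis) for the tested genes of the 10 role lists (vertical axis), with diamonds for genes of the set and red for an unadjusted limma p under 0.05. The 9 pathway genes in red outside the set and Tgfb2 all lie above 0, and the muscle-expressed Mstn and Hfe2 lie farthest out at 3.43 and 3.01.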

How the data were processed

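RNA-Seq had been performed on iWAT from 3 control and 3 AKO samples, each a pool of 2 mice. Reads had been aligned with STAR to GRCm38 (mm10) and counted per gene with featureCounts on GENCODE annotation, and DESeq2 had been used to compare genotypes. The deposited signal of each gene is its read count divided by the size factor of the sample. Per the file headers, the table also holds log2 fold changes and p-values of the authors' comparison, which were not used. Whether counting used strand is not given in the sources used here.

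Deposited values were whole multiples of a unit that differs by sample, and division by this unit recovered whole reads for 100% of them (tolerance 0.01). Genes with a mean of at least 10 were tested with limma (version 3.58.1, R 4.3.3, trend in the variance) on log2(value + 1), with Benjamini-Hochberg adjustment over 13855 genes and a threshold of 0.05. Such fold changes understate the change of low genes. As alternatives, the reads were tested with edgeR (4.0.16), DESeq2 (1.42.0) and limma-voom. Other pseudocounts, filters, TMM scaling, robust limma, a replicate block and leaving out each sample were also run. The code was tested on simulated data. For a single value, the 2-sided exact permutation test of 3 against 3 samples was used, which cannot give p under 0.1. Gene positions and exon lengths came from GENCODE M21 on the same build, in which Ctgf is named Ccn2.

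The genes, the role lists and the marker lists were chosen with earlier results of these data known. All 10 genes of the set were named, and of the other pathway genes those with an unadjusted limma p under 0.05 and the 2 of highest level per kilobase in each list. A gene that this rule names is not reported here, although the counts include it. The exact interval of a read ratio covers counting error only. No column of per-sample values was without a sample.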

Additional observations from a re-analysis of the deposited data

How the results depend on the processing

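No gene of the set was called under any of the 18 alternatives, and 157 of 162 log2 fold changes kept their direction, with 7 of the 9 genes tested never reversing. The exceptions were Bmpr1a, at 0.023, 0.024 and 0.026 without control sample 1, control sample 3 or AKO sample 2 (range -0.12 to 0.026 over samples left out), and Bmpr2, at -0.036 and -0.0074 without control sample 2 or AKO sample 1 (range -0.036 to 0.11). The count of the set with unadjusted p under 0.05, 1 in limma, was 2 without a filter, 2 in DESeq2, 2 in edgeR without a filter, which was added after seeing the data, and 0 to 2 with a sample left out. The count with groups that do not overlap, 1 with all samples, was 0 when at least 10 reads were required in every sample and 2 to 4 with a sample left out, which leaves fewer samples to overlap. Over all genes, 2 were called in limma, 6 with at least 10 reads in every sample, 149 in DESeq2 (36 higher and 113 lower), 11 in robust limma, 5 in edgeR without a filter and 0 to 3 with a sample left out. The cause of the higher count in DESeq2 was not tested. Of the other pathway genes, 2 were called in DESeq2, and those with unadjusted p under 0.05 numbered 5 to 13 with a sample left out, the 5 being without AKO sample 3.

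With the replicate number as a block, 2 genes were called in all and 0 of the set, and 1 of the set had an unadjusted p under 0.05, which was Gdf10, while Tgfb2 was no longer under 0.05. Same-numbered samples had correlations of their deviations of 0.14, -0.35 and 0.24, and samples of unlike number had -0.50 to 0.34. With so few samples, these correlations cannot tell whether the numbers pair the samples. At these depths, Bmp8b, with 12 reads over 6 samples, allows no firm statement, and the intervals of Bmpr1a and Bmpr2 bound differences to about 0.24 on the log2 scale.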
